A study of Mus musculus with 8 samples.

Results

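The genes examined here are 40 genes of the liver's connective tissue: collagens, other matrix proteins, the enzymes that cut or cross-link them, the TGF-beta and PDGF signals that drive them, and markers of hepatic stellate cells. They were chosen by gene symbol, and 38 of the 40 have at least 1 probe with that symbol on the array, 57 of 25697 probes and 38 of 16593 gene symbols in all. No probe carries the symbols Fn1 or Lama5, which are not analysed here. The mice came from the C3HeB/FeJ strain, were male and 21 weeks old, and no treatment is stated for either group. The 4 wild-type animals carried no mutant allele, and the 4 heterozygous animals carried Jag1K295*/+, a stop codon in a single copy of the Notch ligand gene Jag1. The sample titles shorten this group to "hom", while its genotype label and the design text say heterozygous, and the groups here follow the genotype label. Whole-liver RNA of each mouse was hybridised to a bead array of its own, so fewer stellate cells and less RNA per stellate cell cannot be told apart. The allele was studied for its likeness to Alagille syndrome, a human disorder of too few bile ducts, and the comparison asks which of these transcripts differed between the genotypes in adult liver. Whole liver is mostly hepatocytes, and no stellate cells were isolated.

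Stellate cells lie between hepatocytes and the sinusoidal endothelium, store retinoids and produce much of the liver's matrix. In liver injury, including the bile stasis that follows loss of bile ducts, TGF-beta and PDGF signals turn stellate cells and portal fibroblasts into contractile myofibroblasts, which secrete collagens I and III and express smooth muscle actin. Matrix is then remodelled by metalloproteinases, their TIMP inhibitors and lysyl oxidases, which cross-link collagen and elastin.

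No measured gene of the 40 differed between the genotypes past the threshold, an adjusted p under 0.05 over all tested probes. A probe was tested where its signal stood above the negative controls (detection p under 0.05) on at least 4 of the 8 arrays, which left 37 of the 57 probes and 30 genes, each represented by its brightest probe. Over these 30 genes the log2 fold change, heterozygous minus wild type, ran from -0.26 for Ecm1 to 0.41 for Loxl1, and limma adjusted p-values ran from 0.309 to 0.996. Of all 11412 tested probes, 0.00876% passed, a single probe of the keratin gene Krt23, named after its value was seen. At an unadjusted limma p under 0.05, 4 of the 30 genes differed, 3 higher (Loxl1, Pdgfra, Timp3) and 1 lower (Ecm1), where 11.2% of all probes did, 5.26% higher and 5.94% lower. Over all 7960 tested genes, each by its brightest probe, the share was 9.8%. The members' share of 13.3% is near these backgrounds. The groups did not overlap for 2 of the 30 genes, Loxl1 and Pdgfra, or 6.67%, against 6.25% of all probes, 3.15% on the higher side and 3.1% on the lower. Of all tested genes 5.79% did not overlap. Loxl1 is in both counts although it was above background on 1 of 4 wild-type arrays and on 4 of 4 heterozygous arrays, so that it was tested only through the group where it was high. With testing limited to a detection p under 0.01 on all 8 arrays, Loxl1 dropped out and the non-overlapping count was 1. The median log2 fold change was 0.003 over the 30 genes and 0.01 over all 7960 tested genes. Of the 30 genes 16 were above 0 and 14 below, and of all 7960 genes 4331 were above and 3629 below.

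The precision sets what these data could show. The 95% interval of the log2 fold change lay inside a 1.5-fold change in either direction (0.585) for 26 of the 30 genes. It reached further for Loxl1, Mmp14, Mmp2 and Col6a1, up to 0.69 for Mmp14, and the lowest bound was -0.51 for Nid1. These intervals belong to log2 signals to which a constant was added, so differences of dim probes are understated, and more so in signals with no background correction.

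**Figure D1:**
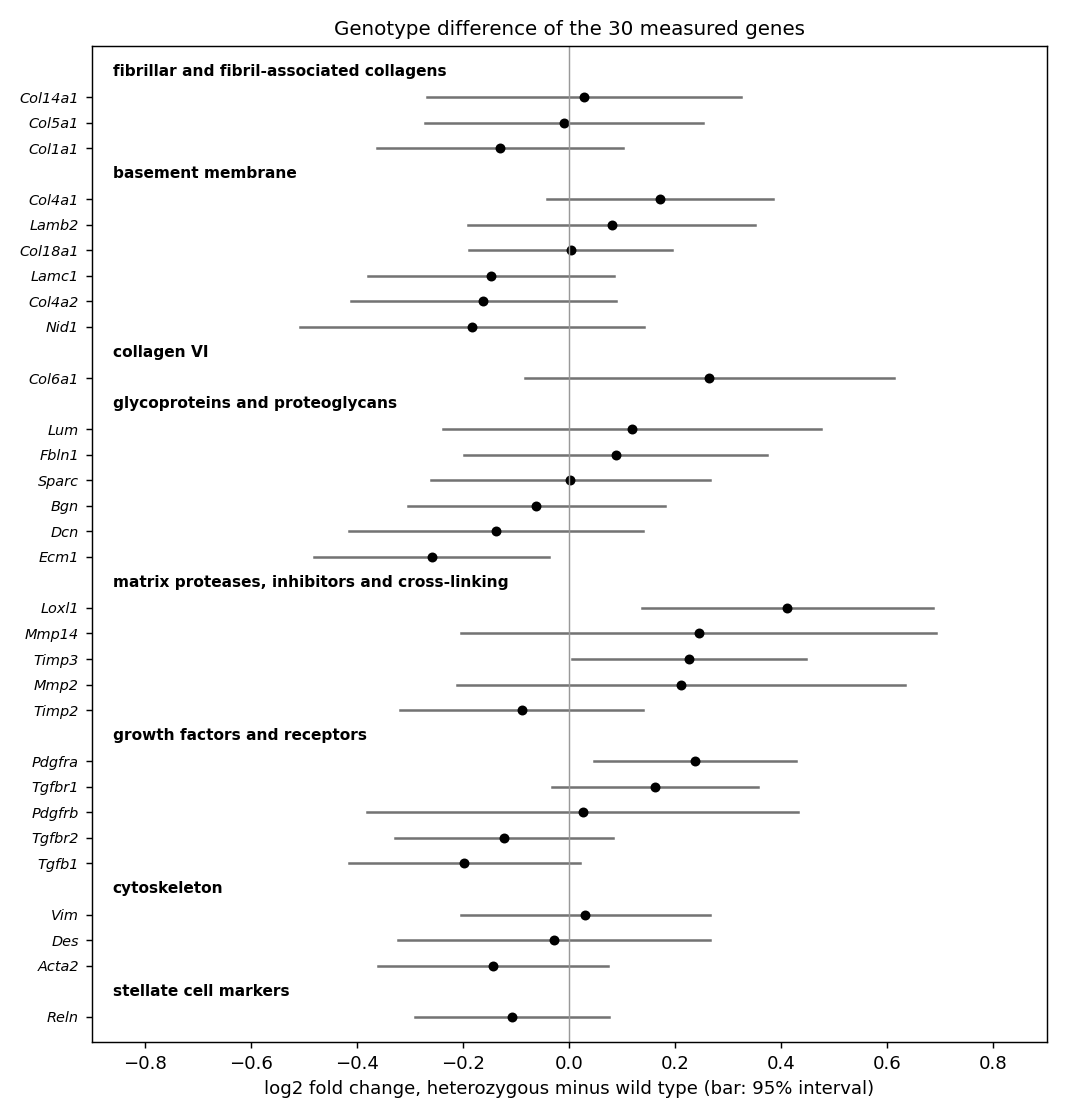
Log2 fold change, heterozygous minus wild type, of the 30 measured genes by role (x axis, log2 units). Dots are limma estimates from 4 against 4 arrays, bars are 95% intervals that are not adjusted for the number of genes. Estimates run from -0.26 (Ecm1) to 0.41 (Loxl1), and the intervals of Loxl1, Pdgfra, Timp3 and Ecm1 leave out 0.

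Several classic genes of fibrosis gave no measurement. Col1a2 (the second chain of collagen I), Col3a1 (collagen III), Col6a2, Timp1 (an inhibitor of metalloproteinases), Lox (lysyl oxidase), Hgf (hepatocyte growth factor), Tagln (transgelin of contractile cells) and Lrat (the enzyme that makes retinyl esters for storage) were not tested. Their 10 probes had signals of 110.6 to 135.1 and detection p-values from 0.0764 to 0.917, so they were not well above background on any array of either genotype. For the Col3a1 probes the signals were 114.2 to 127.8 in wild type and 114.6 to 126.4 in heterozygous liver. For Lrat they were 114.9 to 126.5 and 110.6 to 126.9. A probe at background does not show that its gene is silent: the single probe of Alb, the main protein that hepatocytes secrete, read 127.2 to 138.6 and was detected on 2 of 8 arrays. The Jag1 probe read 111.0 to 123.1 in wild type and 111.3 to 119.8 in heterozygous liver and was detected on 0 of 8 arrays, so it could not check the genotype labels or settle the conflict between titles and genotype label.

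The arrays as a whole were alike, with Pearson correlations of 0.985 to 0.994 between pairs over the tested probes, and 11022 to 11873 probes detected per array. On the first principal component (30.3% of the variance) the genotypes did not overlap. Wild-type arrays lay from -12.2 to -4.12, and heterozygous replicates 1 to 3 from -0.42 to 6.90. Heterozygous replicate 4 stood apart at 24.3. Without heterozygous replicate 4, 0 of the 30 genes passed the threshold, 6 had an unadjusted limma p under 0.05 and 5 had groups that did not overlap. The count of 4 at an unadjusted p under 0.05 moved to 2 without wild-type replicate 2 and to 1 without heterozygous replicate 1. The count of non-overlapping genes was 4 without wild-type replicate 1 and 5 without wild-type replicate 3, and groups separate more readily with fewer arrays. The shares over all probes were not computed for these refits, so their counts have no background to be read against.

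Among fibrillar and fibril-associated collagens, 3 of 5 genes were measured and 0 passed. Col1a1, the main chain of collagen I, was dim: it was detected on 3 of 4 wild-type arrays and 1 of 4 heterozygous arrays. Its log2 signal was 4.79, 5.12, 4.98 and 5.12 in wild-type mice, against 5.05, 4.92, 4.71 and 4.80 in heterozygous mice. The groups overlapped over most of their range (log2 fold change -0.13 ± 0.10, SE; limma adjusted p = 0.669). Col14a1, a collagen that sits on the surface of collagen fibrils, had log2 signals of 6.84, 6.71, 6.21 and 6.42 in wild-type mice, against 6.59, 6.42, 6.71 and 6.57 in heterozygous mice. The heterozygous values all lay within the wild-type range, and the log2 fold change was 0.03 ± 0.13 (SE; limma adjusted p = 0.958). Col5a1, a chain of collagen V that starts fibrils, stood at -0.01 ± 0.12 (SE) on the same scale. Of collagen VI, a microfibrillar collagen of the cell surroundings, Col6a1 was measured. Its brightest probe read 6.02, 5.99, 5.92 and 6.37 in wild-type mice, against 6.37, 6.47, 6.62 and 5.89 in heterozygous mice. On 3 of the 4 heterozygous arrays the value lay at or above the highest wild-type array, while heterozygous replicate 4 was the lowest of all 8. The log2 fold change was 0.26 ± 0.16 (SE; limma adjusted p = 0.558), and a dimmer probe, detected on 4 arrays, gave 0.12 ± 0.17 (SE).

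Of the basement membrane genes all 6 with a probe were measured, and 0 passed. Their median log2 fold change was -0.07. Col18a1, which hepatocytes also express and whose C-terminal fragment is endostatin, had a bright probe with log2 signals of 13.17, 13.16, 13.03 and 13.08 in wild-type mice, against 13.13, 13.12, 12.95 and 13.27 in heterozygous mice. The groups coincided, at 0.004 ± 0.086 (SE) in log2 fold change, and its next probe gave 0.01 ± 0.08 (SE). Lamc1, the gamma 1 chain shared by most laminins, read 6.69, 6.55, 6.38 and 6.48 against 6.60, 6.20, 6.32 and 6.39. The heterozygous values reached from below the lowest wild-type array to close to the highest (log2 fold change -0.15 ± 0.10, SE; limma adjusted p = 0.624). Nid1, the nidogen that links laminin to collagen IV, stood at -0.18 ± 0.15 (SE), and Lamb2, the laminin beta 2 chain, at 0.08 ± 0.12 (SE).

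Col4a1 and Col4a2 encode the chains that join as a trimer in the collagen IV network, and the genes lie head to head and share a promoter. By RefSeq on GRCm38.p6 their annotated starts are 21 bases apart on mouse chromosome 8, at 11312826 for Col4a1 on the minus strand and 11312805 for Col4a2 on the plus strand. The run at chr8:11312801-11312830 (plus strand) is shown because both transcripts begin in it, and capitals mark the bases from start to start. By these positions each transcript runs through the start of the other. The 22 capitals are thus where the annotated transcripts overlap, on opposite strands, and not a stretch upstream of both.
Col4a1 and Col4a2: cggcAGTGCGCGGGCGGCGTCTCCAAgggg
Col4a1 had log2 signals of 7.96, 8.05, 7.97 and 7.82 in wild-type mice, against 8.07, 7.95, 8.14 and 8.32 in heterozygous mice. All heterozygous arrays except replicate 2 lay above the wild-type ones, and the log2 fold change was 0.17 ± 0.10 (SE; limma adjusted p = 0.533). Col4a2 read 7.97, 8.39, 8.42 and 8.32 in wild-type mice, against 8.15, 7.94, 8.12 and 8.23 in heterozygous mice. Here 3 of 4 wild-type arrays lay above all heterozygous ones, and the log2 fold change was -0.16 ± 0.11 (SE; limma adjusted p = 0.618). The 2 genes thus had estimates of opposite sign, neither past the threshold. Col4a1 minus Col4a2 on each array, a quantity chosen after the values were seen, was -0.004, -0.34, -0.45 and -0.50 in wild-type mice, against -0.08, 0.01, 0.02 and 0.10 in heterozygous mice. Its means were -0.32 ± 0.22 (SD, n = 4) and 0.01 ± 0.07 (SD, n = 4), which differed by 0.33 (exact permutation test, two-sided, p = 0.0571, where 0.0286 is the smallest possible with 4 against 4). The wild-type replicate 1 value overlapped the heterozygous ones, and the difference ran from 0.28 without wild-type replicate 4 to 0.44 without wild-type replicate 1 when each array was left out in turn.

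**Figure D2:**
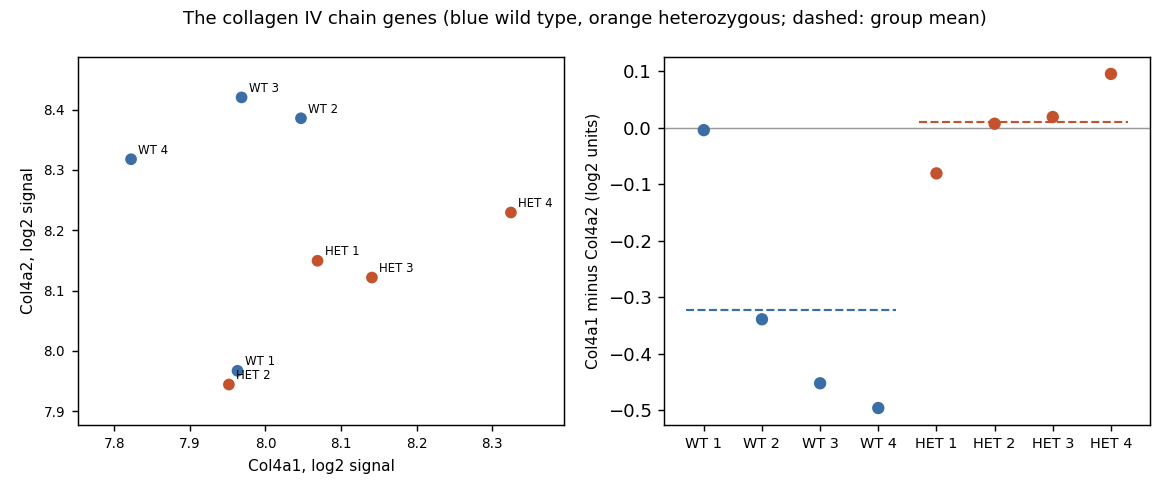
Left, log2 signal of Col4a2 against Col4a1 on the 8 arrays. Right, Col4a1 minus Col4a2 on each array in log2 units, with dashed group means of -0.32 (wild type) and 0.01 (heterozygous). Wild-type replicates 2 to 4 lie from -0.34 to -0.50, and wild-type replicate 1 lies among the heterozygous arrays.

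Of the matrix glycoproteins and proteoglycans 6 genes were measured and 0 passed, with a median log2 fold change of -0.03. Ecm1, a secreted glycoprotein that in mouse liver holds latent TGF-beta inactive and is made by hepatocytes, had the lowest estimate of the 30 genes. Its brightest probe read 10.99, 10.91, 10.58 and 10.71 in wild-type mice, against 10.47, 10.59, 10.49 and 10.61 in heterozygous mice. Wild-type replicates 1 and 2 were the high arrays, and wild-type replicate 3 lay among the heterozygous values, so the groups overlapped. The log2 fold change was -0.26 ± 0.10 (SE; limma adjusted p = 0.397), and a dimmer Ecm1 probe gave -0.37 ± 0.13 (SE; limma adjusted p = 0.369). Dcn, encoding decorin, a proteoglycan that binds collagen fibrils and TGF-beta, read 11.16, 11.04, 10.58 and 10.75 in wild-type mice, against 10.64, 10.75, 10.84 and 10.75 in heterozygous mice. The same wild-type arrays were high, and the heterozygous values lay within the wild-type range. Its log2 fold change was -0.14 ± 0.12 (SE; limma adjusted p = 0.713), and ran from -0.04 without wild-type replicate 1 to -0.24 without wild-type replicate 3. A dimmer Dcn probe gave -0.38 ± 0.18 (SE; limma adjusted p = 0.469). Bgn, encoding the related proteoglycan biglycan, stood at -0.06 ± 0.11 (SE). Lum (lumican, which spaces collagen fibrils) stood at 0.12 ± 0.16 (SE) and Fbln1 (fibulin 1, bound to elastic fibres and fibronectin) at 0.09 ± 0.13 (SE). The probes of Sparc, a matricellular protein that binds collagen, gave 0.002 ± 0.119 (SE) and -0.23 ± 0.17 (SE).

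Of the genes of matrix turnover 5 of 7 were measured, 4 of them above 0, and 0 passed. Their median log2 fold change was 0.23. The count above 0 and the median include Loxl1, which was tested only through the group where it was high, and the median was not computed without it. Loxl1, a lysyl oxidase needed for elastic fibres, read 4.82, 4.99, 4.87 and 4.95 in wild-type mice, against 5.47, 5.58, 5.22 and 4.99 in heterozygous mice. The groups did not overlap, but heterozygous replicate 4 and wild-type replicate 2 differed by less than the rounding shown. The signal was detected on 1 of 4 wild-type arrays and 4 of 4 heterozygous arrays, so the probe met the filter only through the group where it was high. The log2 fold change was 0.41 ± 0.12 (SE; limma adjusted p = 0.309), measured against a wild-type level that 3 of 4 arrays did not place above background. Without background correction it was 0.11 (limma adjusted p = 0.391), and no alternative took it past the threshold. Timp3, an inhibitor that stays bound to the matrix, read 7.57, 7.39, 7.71 and 7.61 against 7.94, 7.85, 7.60 and 7.80. Of the heterozygous arrays only replicate 3 lay inside the wild-type range (log2 fold change 0.23 ± 0.10, SE; limma adjusted p = 0.437). Timp2, which inhibits metalloproteinases and helps Mmp14 activate Mmp2, read 8.48, 8.48, 8.28 and 8.33 against 8.13, 8.18, 8.36 and 8.54. The heterozygous values spread on both sides of the wild-type range, at -0.09 ± 0.10 (SE; limma adjusted p = 0.775). Mmp14, a membrane-bound collagenase, stood at 0.24 ± 0.20 (SE) and Mmp2, a gelatinase of stellate cells and fibroblasts, at 0.21 ± 0.19 (SE). Mmp2 varied mainly among the heterozygous mice, from 5.31 on replicate 4 to 6.39 on replicate 1, against 5.62 to 5.84 in wild type. Mmp14 varied in both groups, from 7.80 to 8.52 in wild type and from 7.90 to 8.74 in heterozygous mice.

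Among growth factors and receptors 5 of 6 genes were measured and 0 passed. Pdgfra, the PDGF receptor of mesenchymal cells, read 6.21, 6.15, 6.02 and 6.20 in wild-type mice, against 6.46, 6.37, 6.23 and 6.47 in heterozygous mice. All 4 heterozygous arrays lay above all 4 wild-type arrays, the nearest values being 6.23 and 6.21, and the log2 fold change was 0.24 ± 0.09 (SE; limma adjusted p = 0.377). Without background correction it was 0.10. Pdgfrb, the PDGF receptor used widely as a stellate cell marker, stood at 0.03 ± 0.18 (SE). Tgfb1, the ligand TGF-beta 1, read 6.38, 6.43, 6.06 and 6.24 against 6.06, 6.16, 5.96 and 6.14. Wild-type replicates 1, 2 and 4 lay above the heterozygous arrays (log2 fold change -0.20 ± 0.10, SE; limma adjusted p = 0.482). Tgfbr1, its signalling receptor, read 8.98, 8.96, 9.08 and 9.27 against 9.26, 9.17, 9.26 and 9.25. Wild-type replicate 4 was the highest of all, and the other wild-type arrays lay below the heterozygous ones (0.16 ± 0.09, SE; limma adjusted p = 0.517). Its other 3 probes were not tested. Tgfbr2, the receptor that binds the ligand first, stood at -0.12 ± 0.09 (SE).

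**Figure D3:**
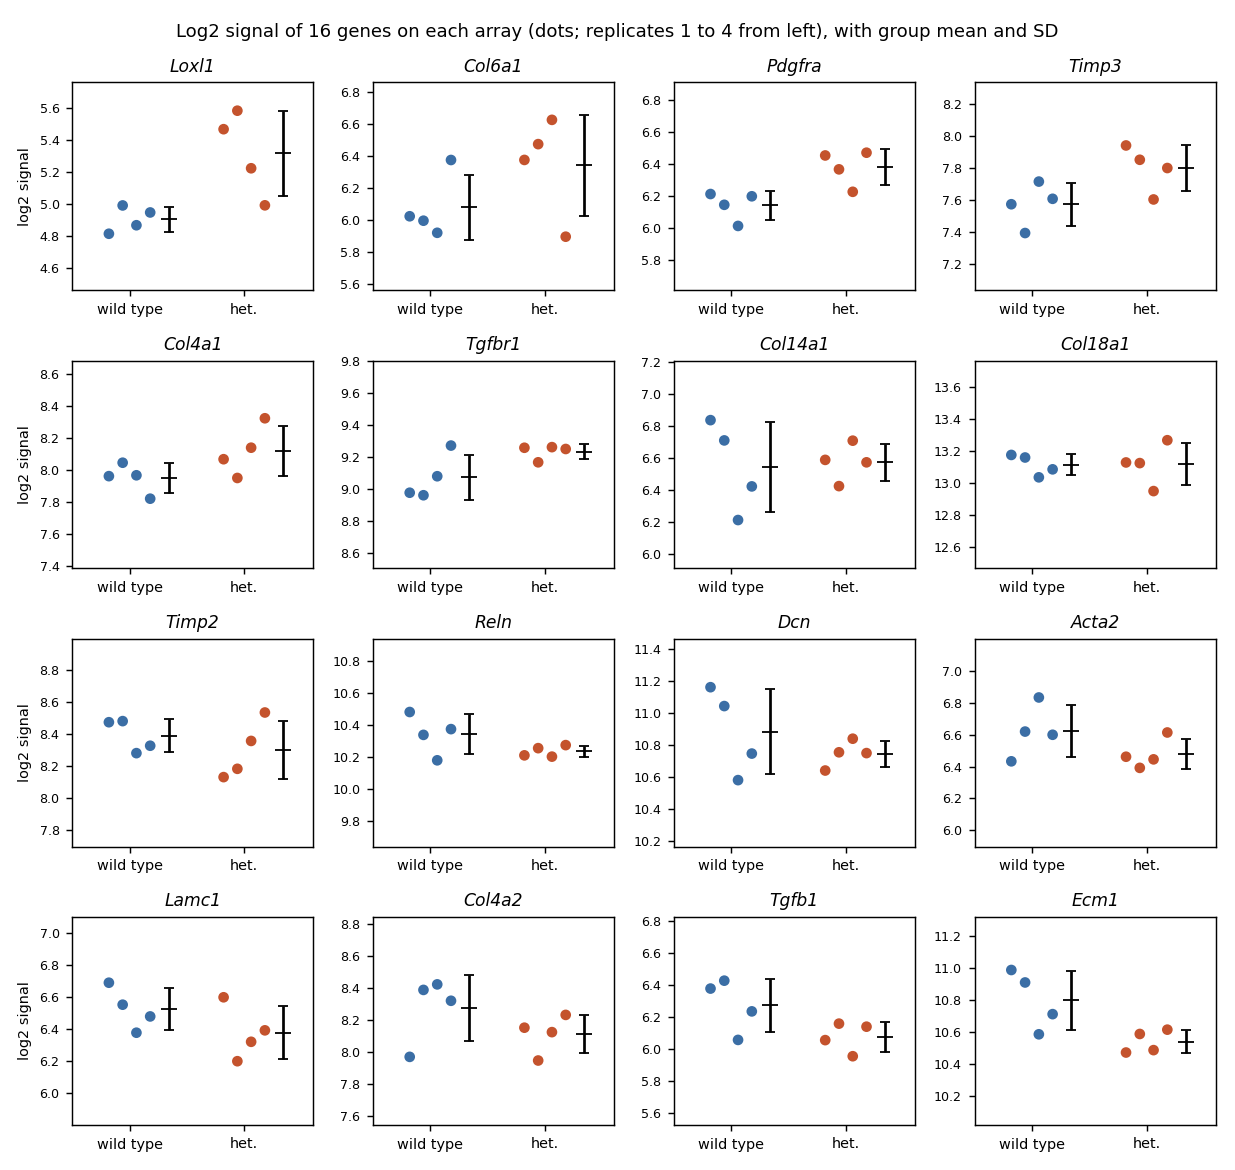
Log2 signal of 16 genes on each array, ordered by their log2 fold change. Blue dots are wild-type and orange dots heterozygous replicates 1 to 4 from left to right, and black bars give the group mean and SD; every panel spans 1.3 log2 units. The groups do not overlap in the Loxl1 and Pdgfra panels.

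Of the contractile and cytoskeletal genes 3 of 4 were measured and 0 passed. Acta2, the smooth muscle actin of myofibroblasts and vessel walls, read 6.43, 6.62, 6.83 and 6.60 in wild-type mice, against 6.46, 6.39, 6.44 and 6.61 in heterozygous mice. The groups overlapped (log2 fold change -0.14 ± 0.10, SE; limma adjusted p = 0.612, and -0.07 without wild-type replicate 3). Its 2 dimmer tested probes gave 0.06 ± 0.19 (SE) and -0.01 ± 0.12 (SE). Des (desmin, an intermediate filament of stellate cells in rodents) stood at -0.03 ± 0.13 (SE) and Vim (vimentin of mesenchymal cells) at 0.03 ± 0.11 (SE). Of the 2 stellate cell markers in the set, Reln was measured. It encodes reelin, a secreted glycoprotein, and read 10.48, 10.34, 10.18 and 10.38 in wild-type mice, against 10.21, 10.26, 10.20 and 10.28 in heterozygous mice. The heterozygous values lay within the wild-type range (log2 fold change -0.11 ± 0.08, SE; limma adjusted p = 0.654), and the estimate was -0.06 without wild-type replicate 1.

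Stellate cell identity was checked with 15 markers, of which 12 had a probe and 8 were tested. Lrat, Hand2, Lhx2 and Gfap were not tested, which left Reln, Des, Pdgfrb, Ngfr, Sod3, Cygb, Rgs5 and Pth1r. Of these, Rgs5 and Des were dim, with mean log2 signals of 4.89 and 5.24, near that of Col1a1 (4.94). Of these 8, 0 passed, and the lowest p-values on either side were those of Ngfr (log2 fold change -0.38) and Sod3 (-0.30), lower, and Cygb (0.19) and Pth1r (0.08), higher. The limma adjusted p-values of these 4 ran from 0.404 to 0.768. At an unadjusted limma p under 0.05, 2 of the 8 differed, Ngfr and Sod3, both lower. That is 25%, against 9.8% of all tested genes, and the list was not tested as a set. The summed linear signal of all 8 was 1586 to 1972 in wild type and 1619 to 1700 in heterozygous liver. Reln alone made up most of this sum, with 1160.6 to 1431.1 and 1179.7 to 1239.6.

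The 30 genes did not follow a single order over the mice. Wild-type replicate 1 was the highest array for 9 genes and the lowest for 1, and wild-type replicate 3 the highest for 2 and the lowest for 8. Heterozygous replicate 4 was the highest for 7. The median deviation from each gene's mean was 0.12 on wild-type replicate 1 and -0.11 on wild-type replicate 3, and between -0.03 and 0.05 on the other 6 arrays. Reln was set against the other 29 genes over the 8 arrays, a comparison chosen after the values were seen. Of 29 correlations 19 were above 0 (median r = 0.31), 5 had an unadjusted p under 0.05, all positive, and 0 passed after Benjamini-Hochberg adjustment over the 29. The highest was with Ecm1 (Pearson r = 0.89, exact permutation p = 0.00382, adjusted 0.0899; Spearman rho = 0.88, p = 0.00724, adjusted 0.210). Tgfb1 followed (r = 0.84, exact permutation p = 0.00791, adjusted 0.0899; rho = 0.83, p = 0.0154, adjusted 0.210), and then Bgn (r = 0.83, exact permutation p = 0.00930, adjusted 0.0899; rho = 0.81, p = 0.0218, adjusted 0.210). Dcn had r = 0.79 (exact permutation p = 0.0191, adjusted 0.138; rho = 0.57, p = 0.151, adjusted 0.487) and Nid1 r = 0.71 (exact permutation p = 0.0466, adjusted 0.270; rho = 0.48, p = 0.243, adjusted 0.587). With values centred within genotype, r was 0.85 for Ecm1, 0.76 for Tgfb1, 0.88 for Bgn, 0.76 for Dcn and 0.64 for Nid1. Centred values of similar size were also negative, with r = -0.76 for Acta2 and -0.70 for Col4a2, and 0 of the 29 centred correlations passed after adjustment. Without the 2 arrays farthest from the Reln median, r was 0.86, 0.92, 0.83, 0.81 and 0.77 in the same order.

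**Figure D4:**
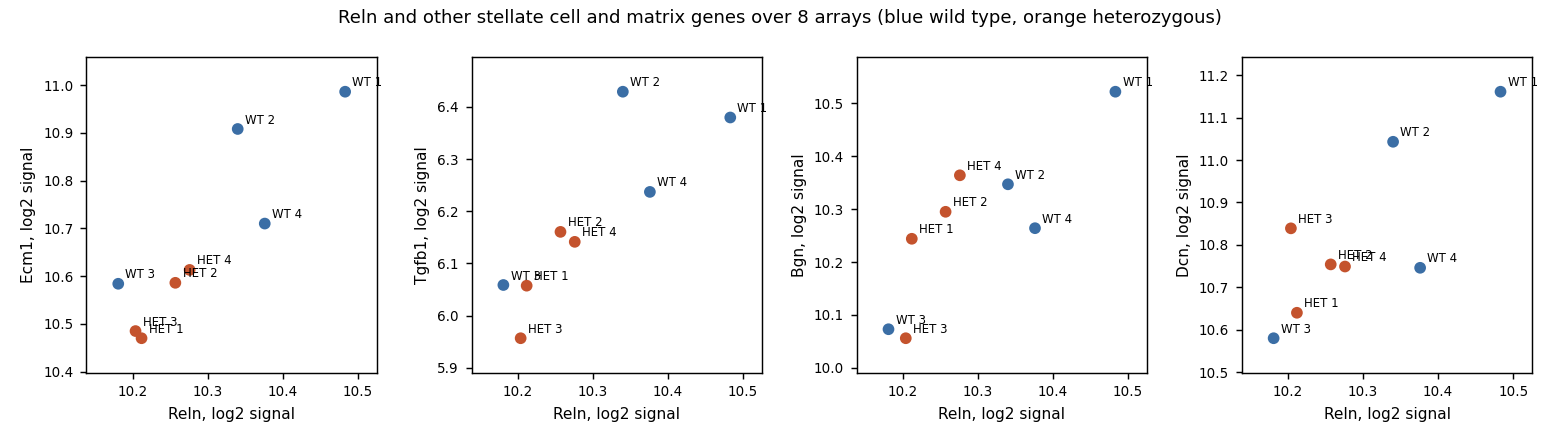
Log2 signals of Ecm1, Tgfb1, Bgn and Dcn against Reln on the 8 arrays, blue for wild type and orange for heterozygous. Wild-type replicate 1 is at the upper right for Ecm1, Bgn and Dcn. Pearson r is 0.89, 0.84, 0.83 and 0.79, and 0 of the 29 Reln correlations passed after adjustment.

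The upstream sequences of Reln, Ecm1 and Bgn are shown as examples. Ecm1 and Bgn were picked from the genes with the highest Reln correlations, of which 0 passed after adjustment. Shared regulation of these genes was not tested. Tgfb1, with a slightly higher Pearson r than Bgn, also has an entry in the promoter table but is not shown. Each is the 250 bases before the RefSeq start on GRCm38.p6, for Reln chr5:22344706-22344955 (minus strand), for Ecm1 chr3:95739570-95739819 (minus strand) and for Bgn chrX:73483351-73483600 (plus strand). Capitals mark the GC box (GGGCGG, either strand) and, in Ecm1, also the AP-1 site (TGANTCA).
Reln: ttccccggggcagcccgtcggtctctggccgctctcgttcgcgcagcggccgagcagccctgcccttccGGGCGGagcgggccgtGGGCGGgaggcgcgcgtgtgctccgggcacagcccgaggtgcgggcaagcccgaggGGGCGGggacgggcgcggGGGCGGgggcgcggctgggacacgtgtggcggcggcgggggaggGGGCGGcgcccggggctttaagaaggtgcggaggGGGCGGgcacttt
Ecm1: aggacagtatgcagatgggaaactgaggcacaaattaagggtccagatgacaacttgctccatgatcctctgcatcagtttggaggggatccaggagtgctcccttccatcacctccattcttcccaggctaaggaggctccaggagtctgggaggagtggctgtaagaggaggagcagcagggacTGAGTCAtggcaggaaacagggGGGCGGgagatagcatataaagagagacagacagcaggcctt
Bgn: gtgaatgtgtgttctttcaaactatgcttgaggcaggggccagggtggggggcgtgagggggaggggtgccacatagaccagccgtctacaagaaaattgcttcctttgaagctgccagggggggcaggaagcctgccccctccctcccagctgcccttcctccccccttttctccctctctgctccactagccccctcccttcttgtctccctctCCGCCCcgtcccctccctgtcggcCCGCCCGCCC
Of the 40 genes 29 had an entry. The GC box was in 19 of these 29 (65.5%), against 45.8% of 17492 protein-coding genes and 35.4% of all 27025 genes in the table. AP-1 letters were in 2 of 29 (Ecm1 and Col6a1), against 7.19% of protein-coding genes. The other motifs searched, on both strands, were CCAAT (12 of 29, against 39.5% of protein-coding genes), CACGTG (2 of 29, against 7.61%), the SMAD palindrome GTCTAGAC (0 of 29, against 0.217%) and the RBPJ core GTGGGAA, the Notch effector's motif (0 of 29, against 6.05%). A match is a description of letters in this window.

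Partner genes paired by known biology gave 4 measurable pairs of 10, and 0 correlated past the threshold over the 8 arrays. Col4a1 and Col4a2 had r = -0.004 (exact permutation p = 0.993, adjusted 0.993; rho = 0.10, p = 0.840, adjusted 0.840). Lamb2 and Lamc1 had r = -0.33 (exact permutation p = 0.425, adjusted 0.567; rho = -0.29, p = 0.501, adjusted 0.668). Mmp14 and Timp2 had r = 0.52 (exact permutation p = 0.181, adjusted 0.567; rho = 0.40, p = 0.327, adjusted 0.654), and Tgfbr1 and Tgfbr2 r = -0.38 (exact permutation p = 0.350, adjusted 0.567; rho = -0.40, p = 0.327, adjusted 0.654). Centred within genotype they were 0.41, -0.25, 0.74 and -0.07, and without the 2 arrays farthest from the first gene's median 0.17, 0.41, -0.33 and -0.19.

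Several tested probes were present for 6 genes, giving 8 pairs of probes, which were compared over the arrays after the values were seen. The Ecm1 probes tracked each other closely (r = 0.96, exact permutation p = 0.00112, adjusted 0.00893; rho = 0.83, p = 0.0154, adjusted 0.123). The Dcn probes did too by Pearson (r = 0.85, exact permutation p = 0.0111, adjusted 0.0445; rho = 0.55, p = 0.171, adjusted 0.432), but without the 2 arrays farthest from the median, r was 0.07. For Ecm1 it was 0.83. The Sparc probes gave r = 0.60 (exact permutation p = 0.112, adjusted 0.300; rho = 0.71, p = 0.0576, adjusted 0.230). The bright Acta2 probe correlated with its dimmer probes at r = 0.17 and -0.12, and the bright Col18a1 probes with each other at r = -0.08, all with adjusted exact permutation p = 0.849. Without heterozygous replicates 3 and 4, the arrays farthest from the median, the Col18a1 value was 0.72. The Col6a1 probes gave r = 0.45 (exact permutation p = 0.2565, adjusted 0.410), and -0.22 without heterozygous replicates 3 and 4. The 2 dimmer Acta2 probes gave r = 0.55 with each other (exact permutation p = 0.159, adjusted 0.3185).

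**Figure D5:**
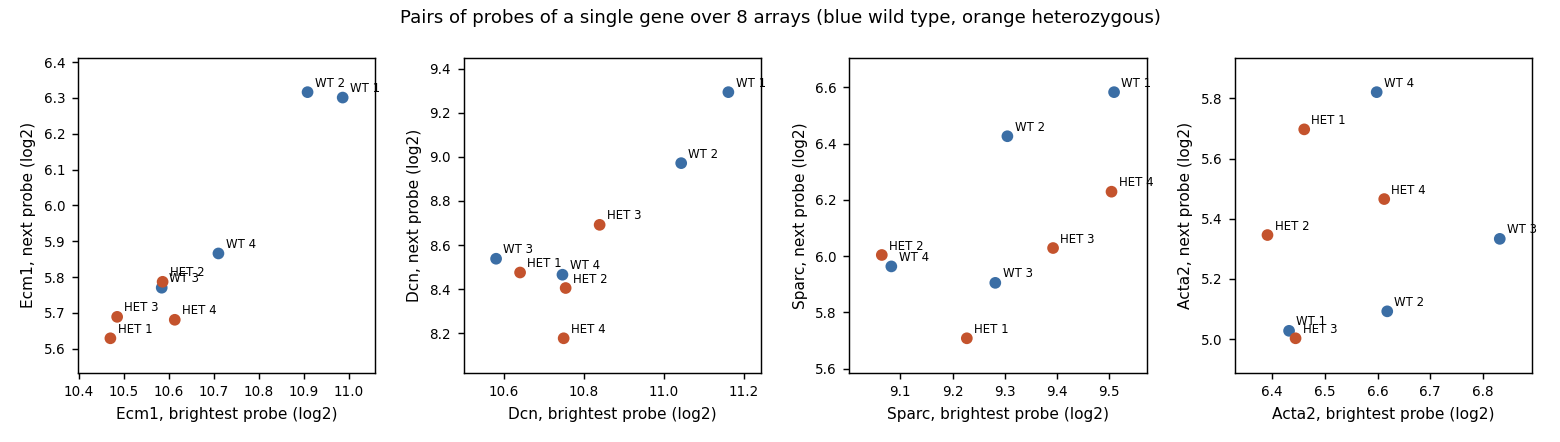
Log2 signal of the next tested probe against the brightest probe of Ecm1, Dcn, Sparc and Acta2 on the 8 arrays, blue for wild type and orange for heterozygous. Wild-type replicates 1 and 2 are the upper right points for Ecm1 and Dcn, and the Acta2 probes (r = 0.17) show no common order.

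Other genes of matrix and TGF-beta biology, none of them among the 40, also gave no call. Of 14 measured genes of other collagens and collagen processing 0 passed, 7 were above 0 and the median log2 fold change was 0.002. The lowest p-values were those of Col27a1, a fibrillar collagen (-0.45), Col5a3 (-0.23), the prolyl hydroxylase P4ha1 (0.23) and the procollagen protease enhancer Pcolce (0.13). Of 13 genes of the TGF-beta pathway 0 passed, with a median of 0.02. Ccn2, a matricellular target of TGF-beta and of YAP, was named for its low p in earlier results of these data. It stood at 0.55 ± 0.11 (SE; limma adjusted p = 0.183). Its groups did not overlap, and it was the 1 gene of these 13 for which this held (7.69%). Over all tested genes the share was 5.79%. Tgif1 stood at 0.19, Smurf1 at -0.19 and Tgfbr3 at -0.16. Of 10 other matrix proteins and proteases 0 passed, with a median of -0.01. There the metalloproteinase Mmp19 stood at 0.34, the laminin chain Lama4 at 0.05, Mgp at -0.12 and Agrn at -0.06.

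Markers of other cells were read beside these values. Of all 7960 tested genes 3629 were below 0 and 4331 above. The markers of a cell type were read on the same 8 arrays, so their counts by direction are not independent. Of 8 tested macrophage genes 7 were below 0 and 0 passed (median -0.18, with Vsig4 at -0.30, Clec4f at -0.23 and Adgre1 at 0.06), and their summed linear signal was 1104 to 1435 in wild type and 919.4 to 1275 in heterozygous liver. Of 10 sinusoidal endothelial genes 7 were below 0 and 0 passed (median -0.11, with Pecam1 at -0.23, Cdh5 at -0.26, Eng at 0.17 and Stab1 at 0.08), with sums of 4700 to 5288 and 4533 to 5259. Of 6 hepatocyte genes 0 passed (Ttr at -0.10, Apoa1 at -0.01, Cps1 at 0.07 and Tdo2 at 0.11), with sums of 94060 to 98200 and 93760 to 99240. The groups did not overlap for 1 of these 6, Ttr (limma adjusted p = 0.625), or 16.7%, against 5.79% of all tested genes. Portal fibroblast and mesothelial markers were nearly all at background: 2 of 10 were tested, Cd34 (0.14) and Upk3b (0.07), with sums of 73.2 to 97.1 and 83.0 to 106.5. Of the 7 smooth muscle markers 1 was tested, Acta2 itself (86.4 to 113.9 and 84.0 to 97.9), and of the 6 bile duct markers with a probe 1, Krt7 (-0.03; 29.2 to 43.5 and 32.3 to 40.0). Of the lymphocyte and adipose markers 0 were tested. The estimates of Ecm1, Reln and Tgfb1 were below 0 but not past the threshold, and any part of these cells in them was not tested.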

How the data were processed

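The members and gene lists were chosen with earlier results of these data known. Per the labels' protocols, liver RNA went through Trizol and RNeasy and was labelled as biotinylated cRNA. The authors deposited a table of non-normalized signal intensity with a detection p-value beside each, per the file headers, exported with GenomeStudio 2011.1 per the submitters' processing notes. A second deposited table holds processed intensity values on a linear scale, and how it was processed is not given in the sources used here. No chip or other batch is named, and none could be tested.

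Intensities were background-corrected with limma's nec (limma 3.58.1, R 4.3.3), with an offset of 16, quantile normalized and taken as log2. Probes with a detection p under 0.05 on at least 4 of 8 arrays were tested two-sided by lmFit and eBayes, and p-values were adjusted over all 11412 by Benjamini-Hochberg. Symbols came from GEO's platform annotation (23978 probes with 1 symbol, 0 with several, 1719 with none), checked against the GRCm38.p6 gene table, which changed 0. Each mouse has its own number, so replicates are animals. Genes were named by rule: non-overlapping groups, the 5 lowest p-values per direction, the brightest gene of each role, and for other lists the 2 lowest p-values per direction. Ccn2 was set by name. Promoter windows come from RefSeq on GRCm38.p6. The number of arrays limits the precision.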

Additional observations from a re-analysis of the deposited data

Results flagged for a closer look

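The 16 named genes in 2 genotypes gave 32 sets of 4 values, and in 1 of them a single array lay apart. About 1 in 20 sets, or 1.6 here, would do so by chance. Tgfbr1 read 9.165 on heterozygous replicate 2, against 9.248 to 9.26 on the other heterozygous arrays. That group spread little, with an SD of 0.05, and the gap is small beside the wild-type range of Tgfbr1.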

How the results depend on the processing

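Of the 30 genes 0 passed under any alternative run. These were raw signals with no correction, a larger offset (50), scaling by medians, testing of all probes, testing at a detection p under 0.01 on all 8 arrays, the deposited processed values, the replicate block, weights per array, a robust trended prior, a looser threshold (adjusted p under 0.10), averaging of a gene's probes, and each array left out. No chip is named, so a chip block was not run. Probes past the threshold over all genes were 1, but 0 without background correction, without the filter and with the replicate block, and 0 to 7 with an array left out. Genes with an unadjusted p under 0.05 were 1 to 6 with an array left out, and non-overlapping genes 2 to 5, and 1 with the stricter filter, which drops Loxl1. Matching shares over all probes were not computed. The median log2 fold change ran from -0.07 (-0.0738, without wild-type replicate 3) to 0.05 (0.05277) with an array left out. No label pairs the mice by replicate number. Deviations on arrays of the same number correlated at -0.07, 0.13, 0.10 and 0.08, and those of different numbers at -0.14 to 0.16. These values show no clear pairing but cannot exclude it, and the replicate block changed no call of the 30 genes. Without background correction the estimates of Loxl1 (0.11), Pdgfra (0.10), Col6a1 (0.11), Timp3 (0.15), Tgfb1 (-0.08), Lamc1 (-0.07) and Acta2 (-0.07) were smaller by over 1.5 times. With an array left out, those of Lamc1 (-0.22 to -0.09), Col4a1 (0.10 to 0.23), Col4a2 (-0.26 to -0.11), Col6a1 (0.17 to 0.41), Timp2 (-0.17 to -0.03), Dcn, Acta2 and Reln moved as much. Averaging probes gave Dcn -0.26 and Acta2 -0.03. The offset of 50 gave Loxl1 0.21, median scaling gave Tgfbr1 0.11 and Timp2 -0.14, and array weights gave Timp2 -0.14. Named genes kept their sign in 277 of 287 refits, and 0 passed the threshold. The 10 exceptions lay near 0: Col14a1 at -0.004677 with median scaling, -0.08339 and -0.01239 without wild-type replicates 3 and 4, and -0.01646 without heterozygous replicate 3 (highest 0.1261, without wild-type replicate 1). Col18a1 was at -0.06659 with median scaling, -0.004737 in the processed table, -0.0001089 with array weights, -0.02217 and -0.006727 without wild-type replicates 3 and 4, and -0.04796 without heterozygous replicate 4 (highest 0.05907, without heterozygous replicate 3). Centring within genotype turned the Col4a1 and Col4a2 correlation to 0.41. Without the 2 farthest arrays it was 0.17, that of Lamb2 and Lamc1 0.41 and that of Mmp14 and Timp2 -0.33. The cause of these moves was not tested. Dim probes limit the rest: 20 of 57 probes were not tested.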
